A study of Mus musculus with 4 samples.

Results

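The handling of heme and iron in liver cells was followed through 8 genes taken by symbol: *Hmox1*, *Slc40a1*, *Fth1*, *Ftl1*, *Tfrc*, *Slc11a1*, *Cd163* and *Blvrb*, out of 31053 genes counted. All 8 were present in the 4 count matrices, which hold 9300 liver mononuclear cells of C57BL/6 mice aged 8 to 10 weeks. The Naïve library came from mice labelled naive, and the sources used here do not say what, if anything, these received. The other libraries came from mice injected with concanavalin A (ConA), a plant lectin that activates T cells and causes hepatitis, followed by vehicle (ConA+Veh), by the dioxin TCDD (ConA+TCDD) or by FICZ, a tryptophan photoproduct (ConA+FICZ), with cells taken 24 hours after ConA in the study's methods, which do not mention FICZ. TCDD and FICZ are both ligands of the aryl hydrocarbon receptor. Each condition had 1 library, the number of mice behind a library is not given in the sources used here, and every interval below covers counting error only, so that each comparison is between libraries and carries no p-value.

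Old red cells are taken up by liver macrophages, the Kupffer cells, where heme is opened by heme oxygenase to iron, carbon monoxide and biliverdin, which is then reduced to bilirubin. The released iron is stored in ferritin or sent back to plasma through ferroportin, the only known iron exporter of mammalian cells. Iron returns to dividing cells and red cell precursors bound to transferrin, through the transferrin receptor. Of the 8 genes, *Cd163* encodes the receptor for hemoglobin bound to haptoglobin, *Hmox1* the inducible heme oxygenase, *Blvrb* a biliverdin and flavin reductase, *Fth1* and *Ftl1* the heavy and light chains of ferritin, *Slc40a1* ferroportin, *Tfrc* the transferrin receptor, and *Slc11a1* a metal transporter of phagosomes, of which C57BL/6 mice carry a loss-of-function allele.

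Several of these messages are controlled after transcription by iron regulatory proteins, which bind hairpins called iron-responsive elements. In a 5′ UTR the bound protein blocks translation, and in the 3′ UTR of *Tfrc* it protects the message from decay, so that a UMI count reads the second kind of control but not the first. The annotated UTRs (GENCODE M21, build GRCm38) were searched on the transcribed strand for a C, 5 bases, the letters CAGTG and 6 further bases, with 5 paired bases between the arms on either side of the loop. The 7 sites found in the members are shown because they divide the list into messages with a site before the coding sequence and the single message with sites after it. Each is printed 5′ to 3′ with 6 bases of flank on either side, and the capitals mark the loop.
Fth1, 5′ UTR, chr19:9982732-9982760, plus strand: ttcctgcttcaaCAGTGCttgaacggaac
Ftl1, 5′ UTR, chr7:45459779-45459807, minus strand: gtcttgcttcaaCAGTGTttgaacggaac
Slc40a1, 5′ UTR, chr1:45925465-45925493, minus strand: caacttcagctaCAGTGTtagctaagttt
Tfrc, 3′ UTR, chr16:32631219-32631247, plus strand: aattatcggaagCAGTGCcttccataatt
Tfrc, 3′ UTR, chr16:32631598-32631626, plus strand: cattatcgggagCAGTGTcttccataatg
Tfrc, 3′ UTR, chr16:32631663-32631691, plus strand: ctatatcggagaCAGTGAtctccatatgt
Tfrc, 3′ UTR, chr16:32631710-32631738, plus strand: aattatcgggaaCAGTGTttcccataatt
Of 21741 genes with an annotated UTR, 160 (0.736%) held a match, 31 in a 5′ UTR and 129 in a 3′ UTR. *Hmox1* (chromosome 8, 75093621 to 75100589), *Slc11a1* (chromosome 1, 74375195 to 74386062), *Cd163* (chromosome 6, 124304656 to 124330527) and *Blvrb* (chromosome 7, 27447978 to 27466144), all on the plus strand, had no match in their annotated UTRs.

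Cells were assigned to classes by marker genes, none of which is a member. A cell needed at least 3 distinct markers of a class, cells that reached more than 1 class were left out, and phagocytes with at least 3 C1q UMIs were called macrophages. Phagocytes with fewer than 3 C1q UMIs and at least 3 monocyte markers were called monocytes. A unique molecular identifier (UMI) marks a captured RNA molecule, and levels are the UMIs of a gene summed over a class, per 1e+06 UMIs of that class (CPM). Naïve, ConA+Veh, ConA+TCDD and then ConA+FICZ, the order of every series of 4 values below, held 12, 172, 23 and 159 macrophages, 64, 47, 20 and 44 monocytes, 43, 76, 8 and 44 endothelial cells, 20, 69, 93 and 6 erythroid cells, and 1765, 1869, 1309 and 1460 lymphocytes. Only 45 barcodes occurred in more than 1 library. The library totals ranged from 5952445 to 19252211 UMIs.

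The macrophages carried few defining markers of Kupffer cells. *Clec4f* had 0 UMIs in Naïve, 11 in ConA+Veh and 0 in both other libraries, *Timd4* had 6 UMIs in ConA+Veh and 0 elsewhere, and the median macrophage held 6 or 7 of 14 monocyte markers in every library. The class is therefore called C1q macrophages here and not Kupffer cells. Any of 7 Kupffer markers was detected in 8 of 12, 68 of 172, 10 of 23 and 56 of 159 of them. The 12 Naïve macrophages and the 8 endothelial cells of ConA+TCDD are small samples, so that a level of a scarce gene there can rest on a few UMIs.

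**Figure D1:**
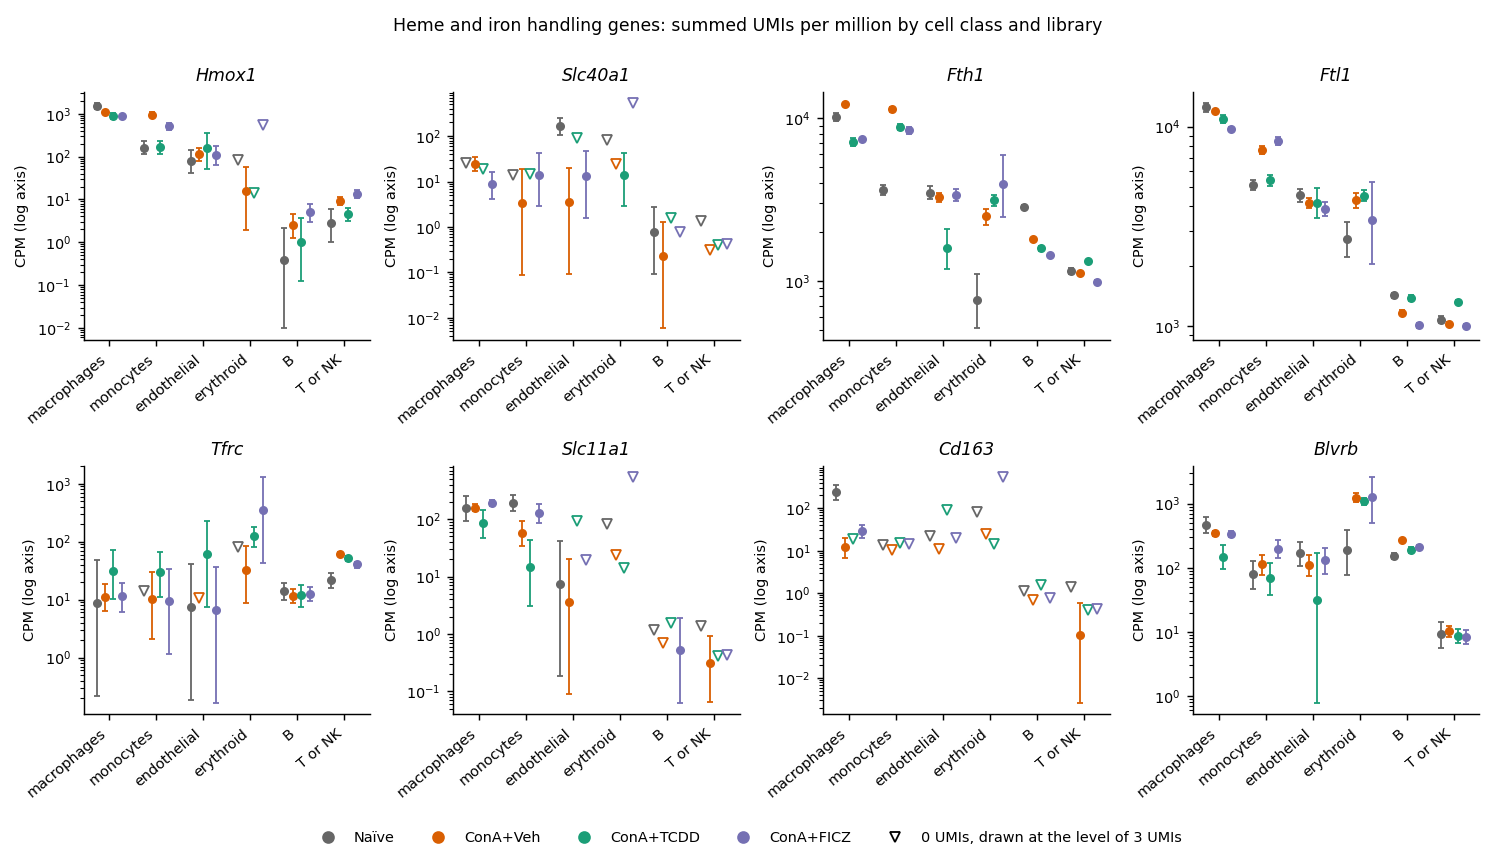
Level of each member on a log axis (CPM) in 6 cell classes (lymphocytes divided into B and T or NK cells), with 1 point per library, vertical bars for the 95% Poisson interval, and open triangles for sums of 0 UMIs, drawn at the level of 3 UMIs. Among detected values *Hmox1*, *Slc11a1* and *Cd163* are highest in macrophages or monocytes, *Tfrc* in T or NK cells or erythroid cells, and *Fth1* and *Ftl1* are detected in every class.

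Of the 40 pairs of a member and a class, 25 were measured in each of the 3 comparisons, having at least 20 UMIs over both libraries compared. The 25 were not the same pairs in every comparison. A pair was called when the levels differed at least 2-fold with a counting interval that left out no change. Between ConA+Veh and Naïve 9 of the 25 were called, 6 higher and 3 lower, against 22.0% of all gene and class pairs in either direction, 9.48% higher and 12.5% lower. Between ConA+TCDD and ConA+Veh 5 were called, 1 higher and 4 lower, against 5.45% of all pairs, 2.69% higher and 2.76% lower. Between ConA+FICZ and ConA+Veh 3 were called, 2 higher and 1 lower, against 5.55% of all pairs, 3.09% higher and 2.46% lower. The median log2 ratio of the measured pairs was 0.00, −0.36 and −0.04 in the 3 comparisons, and that of all measured genes was −0.10, −0.02 and 0.04. The last 2 comparisons share the ConA+Veh library.

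By class, the calls of ConA+Veh over Naïve were 1 of 7 measured members in macrophages (6.19% of all genes there), 3 of 5 in monocytes (28.0%), 1 of 5 in endothelial cells (18.9%), 2 of 3 in erythroid cells (85.2%) and 2 of 5 in lymphocytes (26.7%). Those of ConA+TCDD over ConA+Veh were 1 of 7 (3.81%), 2 of 5 (10.3%), 1 of 4 (5.85%), 1 of 4 (15.6%) and 0 of 5 (3.39%) in the same classes, and those of ConA+FICZ over ConA+Veh 2 of 8 (4.86%), 1 of 5 (12.0%), 0 of 4 (5.43%), 0 of 3 (20.4%) and 0 of 5 (3.31%). Macrophages and monocytes had a call in every comparison. In erythroid cells most genes passed in the first comparison, so the members' count there is not a result about them.

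**Figure D2:**
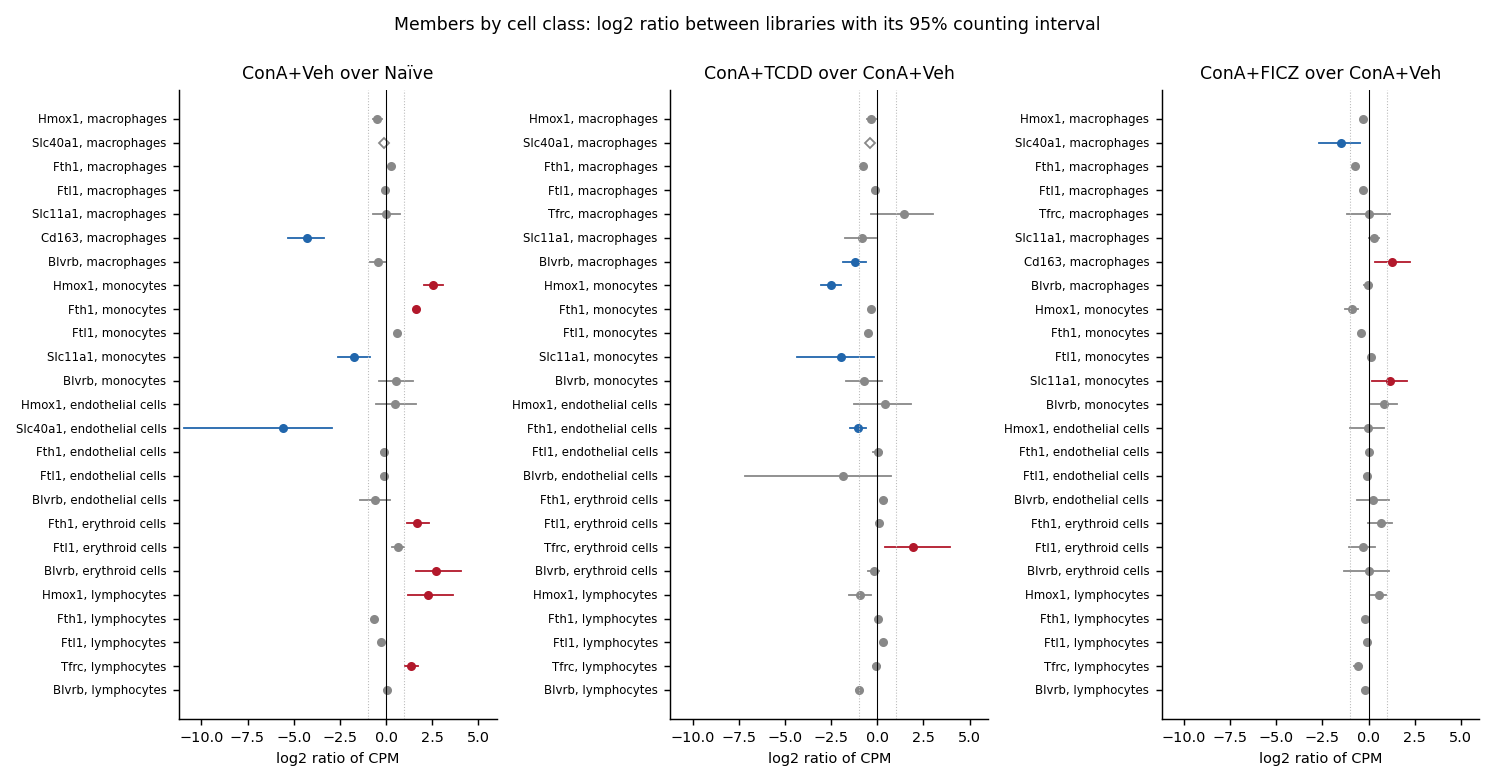
Log2 ratio of each measured member and class pair in the 3 comparisons, with exact 95% counting intervals; red marks pairs called higher, blue pairs called lower, grey pairs not called, open diamonds bounds where a library held 0 UMIs, and dotted lines a 2-fold difference. In ConA+Veh over Naïve the lowest values are *Slc40a1* in endothelial cells (−5.56) and *Cd163* in macrophages (−4.30).

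*Cd163* was almost wholly a gene of the C1q macrophages, and its level there was lower in all 3 ConA libraries than in Naïve. It had 27 UMIs in 5 of 12 Naïve macrophages, which is 236 CPM (155 to 343). In ConA+Veh it had 16 UMIs in 9 of 172 macrophages, 12 CPM (6.86 to 19.5), and in ConA+FICZ 33 UMIs in 18 of 159, 28.8 CPM (19.8 to 40.4). In ConA+TCDD no UMI was found in 23 macrophages, where 3 UMIs would be 18.7 CPM, so that its level there cannot be set against that of ConA+Veh. The ConA+Veh level was 19.7-fold lower than the Naïve level (log2 ratio −4.30, −5.29 to −3.35), and the ConA+FICZ level was 2.40-fold higher than that of ConA+Veh (1.26, 0.36 to 2.22).

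Macrophages held 100%, 80.0%, 0% and 84.6% of the 27, 20, 2 and 39 *Cd163* UMIs of the 4 libraries, and outside them the gated classes held 1 UMI, in a T or NK cell of ConA+Veh. Among macrophages with a Kupffer marker the levels were 285, 15.3, 0 and 46.3 CPM. Naïve was again highest in this subset, and ConA+FICZ stood above ConA+Veh. The ConA+TCDD cells held no UMI and cannot be placed against ConA+Veh. Over all macrophages *Folr2*, a marker of resident macrophages, stood at 166, 15.7, 6.23 and 18.3 CPM, and the summed Kupffer markers at 271, 124, 99.7 and 96.8 CPM. Both were highest in Naïve, as *Cd163* was. The sum includes *Folr2*, and its Naïve value rests only on *Folr2* and *Adgre1* (105 CPM), so the 2 series are not independent. The other way went *Clec4f*, *Vsig4*, *Timd4*, *Marco* and *Cd5l*, with 0 UMIs each in Naïve and 11, 4, 6, 13 and 26 in ConA+Veh. The part of these markers in the *Cd163* result was not tested. The *Cd163* ratio of ConA+FICZ over ConA+Veh changed sign, to −0.19, when every cell was given equal weight.

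*Hmox1* was highest in macrophages, then in monocytes and endothelial cells, in all 4 libraries, and the libraries were further apart in monocytes than in macrophages. The step from monocytes to endothelial cells was within counting error in Naïve (1.01, 0.00 to 2.13) and ConA+TCDD (0.13, −1.24 to 1.84). In macrophages it stood at 1538 CPM (1319 to 1783) in Naïve, 1104 (1049 to 1162) in ConA+Veh, 885 (746 to 1043) in ConA+TCDD and 885 (831 to 941) in ConA+FICZ. It was detected in 8 of 12, 120 of 172, 20 of 23 and 106 of 159 macrophages. None of the macrophage comparisons reached 2-fold, where ConA+Veh differed from Naïve by −0.48 (−0.70 to −0.24) on the log2 scale and the value was −0.32 for both ConA+TCDD (−0.58 to −0.07) and ConA+FICZ (−0.44 to −0.20) over ConA+Veh.

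Single cells set much of these levels. The macrophage with most *Hmox1* held 96 of 176 UMIs in Naïve (54.5%), 198 of 1473 in ConA+Veh (13.4%), 61 of 142 in ConA+TCDD (43.0%) and 140 of 1015 in ConA+FICZ (13.8%). Without that cell the levels were 813, 969, 569 and 770 CPM, so that Naïve no longer stood above ConA+Veh (0.25, −0.07 to 0.60). The median macrophage held 1.93, 3.27, 4.18 and 2.32 *Hmox1* UMIs per 10000, and the highest 60.1, 156, 64.7 and 235. Thinned to 1000 UMIs per cell, 45.5%, 37.2%, 39.1% and 32.5% of macrophages had an *Hmox1* UMI, against 0.483%, 0.970%, 0.905% and 1.30% of T or NK cells at the same depth.

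**Figure D3:**
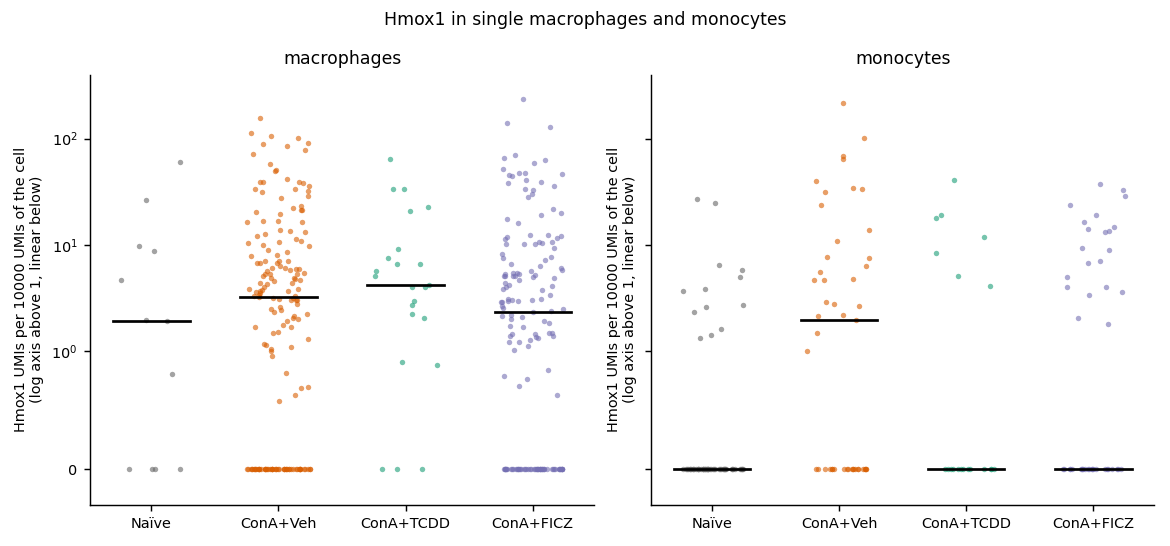
*Hmox1* UMIs per 10000 UMIs in single macrophages and monocytes of each library, on an axis that is logarithmic above 1 and linear below, with 1 point per cell and a black line at the median. Macrophage medians lie between 1.93 and 4.18 in all 4 libraries, while the monocyte median is 1.96 in ConA+Veh and 0 in the others.

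In monocytes *Hmox1* stood at 163 CPM (113 to 226) in Naïve, 956 (847 to 1075) in ConA+Veh, 169 (117 to 237) in ConA+TCDD and 506 (415 to 612) in ConA+FICZ. The intervals of Naïve and ConA+TCDD overlapped, and those of ConA+Veh and ConA+FICZ lay above both. The ConA+Veh level was 5.87-fold higher than in Naïve (2.55, 2.04 to 3.11), and the ConA+TCDD level 5.65-fold lower than in ConA+Veh (−2.50, −3.06 to −1.98). ConA+FICZ was lower than ConA+Veh by less than 2-fold (−0.92, −1.25 to −0.59). Among all genes measured in monocytes 28.0%, 10.3% and 12.0% were called in the 3 comparisons.

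A single monocyte held 146 of the 279 *Hmox1* UMIs of ConA+Veh. Without the top cell of each library the levels were 127, 466, 126 and 429 CPM, the ConA+Veh to Naïve ratio was 1.87 (1.27 to 2.53) and the ConA+TCDD to ConA+Veh ratio −1.89 (−2.57 to −1.27), and ConA+FICZ stood near ConA+Veh. By cells, 13 of 64, 26 of 47, 7 of 20 and 21 of 44 monocytes had a UMI. At equal depth these shares were 7.94% (2.63 to 17.6), 34.9% (21.0 to 50.9), 26.3% (9.15 to 51.2) and 33.3% (19.1 to 50.2), so that the interval of ConA+TCDD overlapped that of every other library. When cells were assigned to classes at equal depth, the ConA+TCDD ratio shrank to −0.50 and was no longer called.

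The monocytes of the libraries were not alike in their markers. *Lyz2*, a lysozyme gene, stood at 16849, 2504, 782 and 3256 CPM in them, and *Ace*, a marker of the nonclassical type, at 251, 24.0, 0 and 23.7 CPM. In monocytes with *Ccr2*, *Ly6c2*, *Chil3* or *F13a1* and without *Treml4* and *Ace*, called classical-type here, *Hmox1* stood at 163, 1227, 222 and 604 CPM over 37, 35, 17 and 35 cells, in the same order of libraries. In monocytes with *Treml4* or *Ace* it stood at 66.6 CPM over 25 Naïve cells, 609 over 8 ConA+Veh cells and 119 over 4 ConA+FICZ cells. The part of the other marker differences in the result was not tested.

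Endothelial cells held *Hmox1* at 81.0, 115, 155 and 112 CPM, from 11, 32, 5 and 17 UMIs, with overlapping intervals, and the log2 ratio of ConA+Veh over Naïve was 0.50 (−0.52 to 1.64). Lymphocytes held little, at 1.46, 7.20, 3.78 and 10.5 CPM from 7, 100, 35 and 113 UMIs. The ConA+Veh lymphocyte level was nevertheless 4.92-fold higher than in Naïve (2.30, 1.20 to 3.65), with 26.7% of all genes called in that class. In T or NK cells alone the levels were 2.75, 9.33, 4.50 and 13.5 CPM, with ratios of 1.76 (0.58 to 3.25), −1.05 (−1.67 to −0.46) and 0.53 (0.10 to 0.96) in the 3 comparisons.

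Per 100 C1q UMIs, *Hmox1* had 16.9, 21.2 and 10.9 UMIs in the macrophages of ConA+Veh, ConA+TCDD and ConA+FICZ, and 287, 220 and 409 in the T or NK cells. B cells lay between, at 42.3, 50 and 82.6, on 26, 4 and 23 C1q UMIs. The T or NK values rest on 31, 15 and 23 C1q UMIs. The monocytes of ConA+Veh held *Hmox1* with little C1q (34.2 CPM), but their low C1q was set by the rule that defined them. The part of free RNA in the lymphocyte levels was not tested. Macrophages held 73.0%, 60.7%, 34.1% and 57.1% of the *Hmox1* UMIs of a library but 1.92%, 6.93%, 1.33% and 7.16% of all its UMIs. In every library, some *Hmox1* UMIs lay in cells outside the 5 classes, neutrophils and hepatocytes. Those cells were of another class or of no single class. The share in such cells was largest in ConA+TCDD, where it exceeded the share of macrophages. The part of these cells in the monocyte levels was not tested.

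*Blvrb* had a wider distribution, being lowest in T or NK cells in all 4 libraries and highest in erythroid cells in the 3 ConA libraries. In Naïve it was highest in macrophages over all UMIs, but the erythroid cells stood at 1688 (679 to 3479) when hemoglobin UMIs were left out of the total. In macrophages it stood at 472 CPM (355 to 616) in Naïve, 344 (313 to 377) in ConA+Veh, 150 (95.9 to 223) in ConA+TCDD and 337 (305 to 373) in ConA+FICZ. Only the interval of ConA+TCDD lay apart from those of the other libraries. The ConA+TCDD level was 2.30-fold lower than that of ConA+Veh (−1.20, −1.86 to −0.61), where 3.81% of macrophage genes were called. It rests on 24 UMIs in 11 of 23 cells, and at equal depth 30.5% (23.5 to 38.1) of ConA+Veh macrophages had a UMI, against 13.04% (2.78 to 33.6) of those of ConA+TCDD. The call held in 14 of 17 alternatives and ended when cells were assigned at equal depth (−0.64), with at least 10 C1q UMIs (−0.99) and with equal weight for every cell (−0.62).

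*Hmox1* was detected in 8, 120, 20 and 106 macrophages and *Blvrb* in 8, 119, 11 and 113. Both were detected in 7 of 12, 92 of 172, 10 of 23 and 81 of 159 macrophages. Whether they occurred together more often than their separate shares would give was not tested. In monocytes *Blvrb* stood at 79.0, 113, 69.7 and 199 CPM and no comparison with Naïve or ConA+Veh was called, while ConA+FICZ stood 1.51 (0.61 to 2.50) above ConA+TCDD on the log2 scale.

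B cells carried *Blvrb* at 153 CPM (138 to 168) in Naïve, 270 (255 to 286) in ConA+Veh, 190 (171 to 211) in ConA+TCDD and 208 (193 to 223) in ConA+FICZ. The ConA+Veh level lay above the other 3, by less than 2-fold, with log2 ratios of 0.82 (0.66 to 0.99) over Naïve, −0.51 for ConA+TCDD and −0.38 for ConA+FICZ. T or NK cells stood at 9.16, 10.3, 8.73 and 8.45 CPM. B cells held 70.5%, 53.5%, 44.4% and 46.3% of all *Blvrb* UMIs.

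Levels in erythroid cells depended on the total by which they were divided. Red cells had been lysed when the cells were prepared, and hemoglobin UMIs reached 2.25%, 16.01%, 30.5% and 0.665% of the cells in each library. Hemoglobin genes took 88.7% of all UMIs of the Naïve erythroid cells but 33.7%, 29.5% and 49.2% in the ConA+Veh, ConA+TCDD and ConA+FICZ cells. *Blvrb* stood there at 191 CPM (76.9 to 394) in Naïve, from 7 UMIs, and at 1243 (1055 to 1456), 1092 (955 to 1243) and 1252 (504 to 2581) in the others. The ConA+Veh level was 6.51-fold higher than in Naïve (2.70, 1.62 to 4.04), and the *Fth1* level 3.25-fold higher (1.70, 1.14 to 2.32), but 85.2% of all genes measured in this class were called, nearly all of them higher (84.5%). As CPM of the UMIs other than hemoglobin, *Blvrb* stood at 1688, 1874, 1549 and 2467, and the ratio of ConA+Veh over Naïve was 0.15. On this scale *Fth1* stood at 6754, 3749, 4424 and 7755, so that its direction between Naïve and ConA+Veh turned (−0.85). *Ftl1* stood at 24120 (19625 to 29336) in Naïve and 6438 (5901 to 7011) in ConA+Veh, lower with intervals far apart, whereas over all UMIs it stood at 2731 and 4271 CPM (0.65). The Naïve values rest on the 4146 UMIs that were not hemoglobin.

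**Figure D4:**
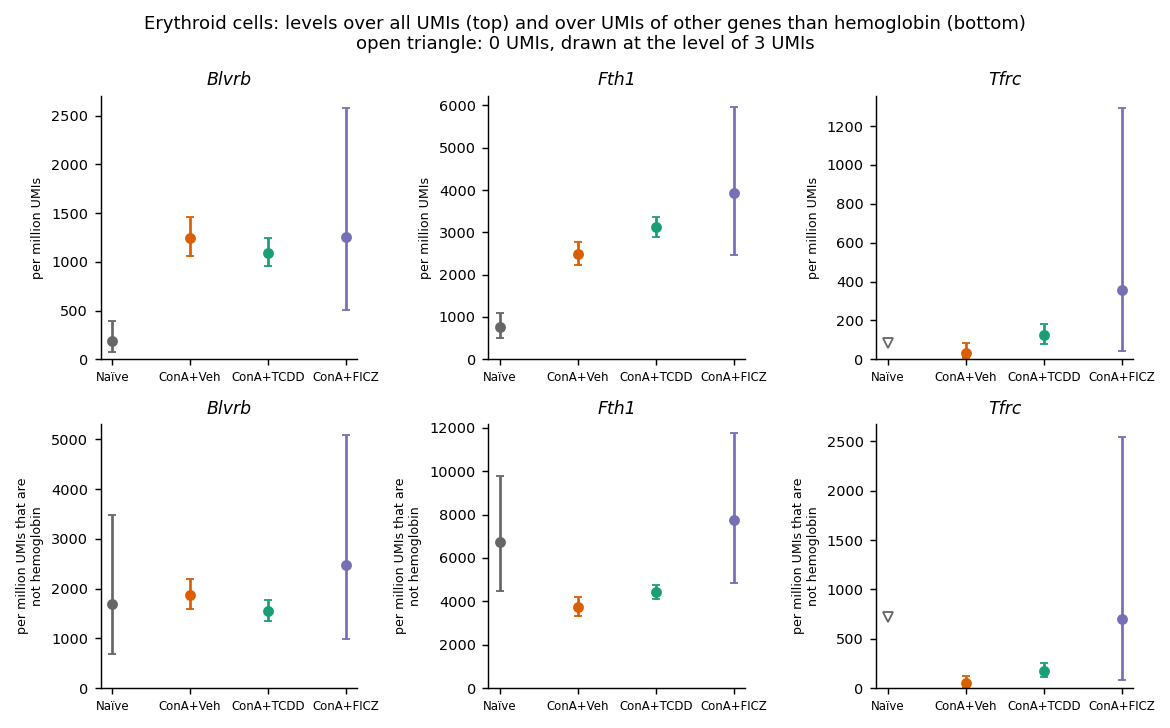
Level of *Blvrb*, *Fth1* and *Tfrc* in erythroid cells of the 4 libraries on linear axes that start at 0, as CPM of all UMIs (top) and as CPM of the UMIs other than hemoglobin (bottom), with 95% Poisson intervals and open triangles for 0 UMIs, drawn at the level of 3 UMIs. The *Blvrb* difference between Naïve and the ConA libraries in the top panels is not seen in the bottom panels, where all 4 libraries lie between 1549 and 2467, and *Fth1* turns from lower to higher in Naïve than in ConA+Veh.

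Ferritin was by far the most abundant product of the list. In macrophages *Fth1* stood at 10206 CPM in Naïve, 12231 in ConA+Veh, 7132 in ConA+TCDD and 7436 in ConA+FICZ, and *Ftl1* at 12478, 11992, 10960 and 9774 CPM. The *Fth1* level of ConA+TCDD and ConA+FICZ was lower than that of ConA+Veh by less than 2-fold, with log2 ratios of −0.78 (−0.87 to −0.69) and −0.72 (−0.76 to −0.68). In Naïve, a single macrophage held 659 of 1168 *Fth1* UMIs, and without the top cell of each library the level was 5170 CPM against 10954 in ConA+Veh, a ratio of 1.08 (0.96 to 1.21) that passes 2-fold where the full ratio of 0.26 (0.18 to 0.35) does not. Both ferritin genes have near-identical pseudogene copies, and reads could be lost to these in the authors' counting.

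In monocytes *Fth1* was lowest in Naïve, at 3630 CPM (3380 to 3894), and stood at 11333 (10950 to 11726) in ConA+Veh, 8832 (8425 to 9252) in ConA+TCDD and 8425 (8038 to 8826) in ConA+FICZ. The ConA+Veh level was 3.12-fold higher than in Naïve (1.64, 1.53 to 1.76), and 1.40 (1.28 to 1.52) on the log2 scale without the top cells. *Ftl1* in the same monocytes stood at 5094, 7631, 5387 and 8477 CPM, and its ratio of ConA+Veh over Naïve was 0.58. Thus the heavy chain was called in monocytes and the light chain was not, although the difference between the chains was not tested. Over all UMIs no *Ftl1* comparison was called in any of the 5 classes, where its log2 ratios ran from −0.50 to 0.65, the highest being that of erythroid cells described above.

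Neutrophils, which are outside the 5 classes, also held *Fth1* at 6037 CPM in Naïve and 16295, 17652 and 18172 CPM in the ConA libraries, where ConA+Veh stood 1.43 (1.16 to 1.72) above Naïve on the log2 scale. Endothelial *Fth1* stood at 3474, 3271, 1583 and 3375 CPM, and the lower ConA+TCDD value (−1.05, −1.48 to −0.64) rests on 8 cells, was called in 11 of 16 alternatives and turned to 0.26 when every cell was given equal weight. In Naïve, 1 endothelial cell held 308 of the 472 *Fth1* UMIs. In lymphocytes *Fth1* stood at 2843, 1797, 1582 and 1432 CPM in B cells and 1146, 1116, 1318 and 982 CPM in T or NK cells.

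*Slc40a1*, the iron exporter, had its highest level in the endothelial cells of the Naïve library and was nearly absent from them after ConA. It had 23 UMIs in 15 of 43 Naïve endothelial cells, 169 CPM (107 to 254), 1 UMI in 1 of 76 cells in ConA+Veh, 3.59 CPM (0.0908 to 19.98), and 2 UMIs in 1 of 44 cells in ConA+FICZ, 13.1 CPM (1.59 to 47.4). In ConA+TCDD it had 0 UMIs in 8 cells, too few to place its level, since 3 UMIs would be 93.1 CPM. The ConA+Veh level was 47.2-fold lower than that of Naïve (−5.56, −10.92 to −2.94), where 18.9% of endothelial genes were called in either direction. At equal depth 20.5% (9.30 to 36.5) of Naïve and 1.56% (0.0396 to 8.40) of ConA+Veh endothelial cells had a UMI. The ratio was called under every one of 17 alternatives, between −5.69 and −3.79.

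The endothelial cells themselves differed between the libraries. *Clec4g*, a lectin of sinusoidal endothelium, stood at 2701, 7.17, 0 and 13.1 CPM, *Stab2*, a scavenger receptor, at 1487, 133, 341 and 151, and *Kdr*, a VEGF receptor, at 1443, 380, 372 and 401. *Cdh5*, the cadherin of endothelial junctions, kept a similar level, at 817, 800, 1149 and 886 CPM, and *Lyve1* stood at 868, 825, 1366 and 762. At least 2 sinusoidal markers were found in 93.0%, 28.9%, 50.0% and 40.9% of the endothelial cells. Among those cells *Slc40a1* stood at 193 CPM (121 to 292) in Naïve, 0 in ConA+Veh, 0 in ConA+TCDD and 47.5 in ConA+FICZ, from 22, 0, 0 and 2 UMIs in 40, 22, 4 and 18 cells. The sinusoidal markers moved with *Slc40a1*, and their part in the result was not tested.

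**Figure D5:**
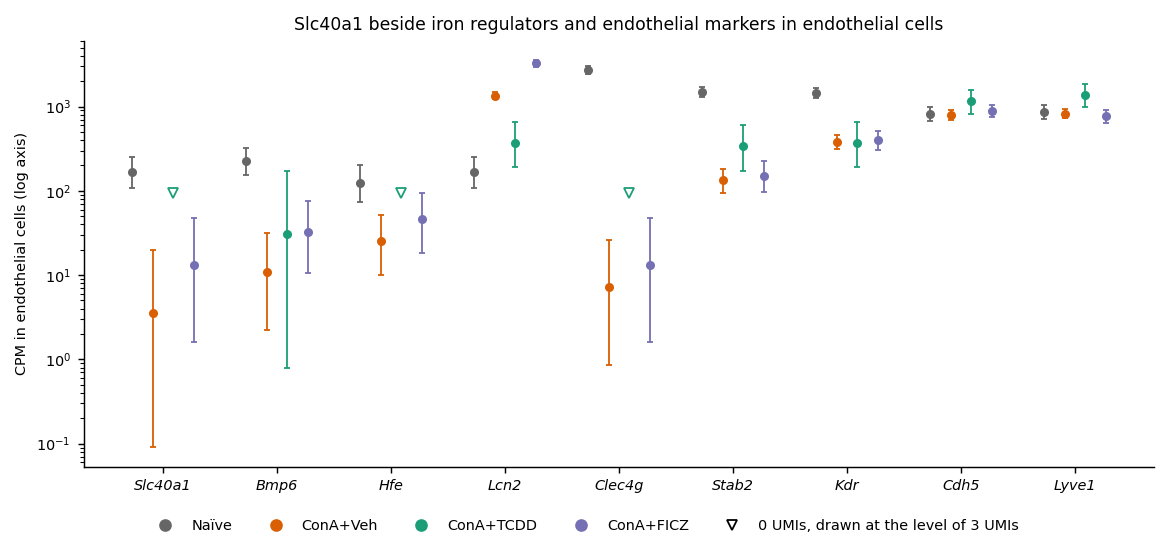
Levels on a log axis (CPM) of *Slc40a1*, *Bmp6*, *Hfe* and *Lcn2* beside 5 endothelial markers in the endothelial cells of the 4 libraries, with 95% Poisson intervals. *Slc40a1*, *Bmp6*, *Hfe* and *Clec4g* are lower in ConA+Veh than in Naïve, *Lcn2* is higher, and *Cdh5* and *Lyve1* lie near their Naïve level.

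In macrophages *Slc40a1* was seen in ConA+Veh, with 33 UMIs in 14 of 172 cells, 24.7 CPM (17.03 to 34.7), and in ConA+FICZ, with 10 UMIs in 3 of 159 cells, 8.72 CPM (4.18 to 16.03). The 12 Naïve and 23 ConA+TCDD macrophages held none, where 3 UMIs would be 26.2 and 18.7 CPM, and no fold can be read against Naïve. The ConA+FICZ level was 2.84-fold lower than that of ConA+Veh (−1.50, −2.69 to −0.45), where 4.86% of macrophage genes were called, and −2.92 (−5.29 to −1.22) without the top cell of each library, since 1 cell held 7 of the 10 UMIs. It was −0.98 and not called when cells were assigned at equal depth.

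All macrophages with *Slc40a1* also held *Hmox1*, 14 of 14 in ConA+Veh and 3 of 3 in ConA+FICZ, while 3 and 0 of them held *Cd163*. Of all macrophages in these libraries, 120 of 172 and 106 of 159 held *Hmox1*. Whether the genes occurred together more often than their separate shares would give was not tested. In ConA+Veh the *Slc40a1* level was 79.5 CPM in macrophages with fewer than 6 monocyte markers, from 23 UMIs in 79 cells. It was 9.57 CPM in those with at least 6, from 10 UMIs in 93 cells. The same cells with fewer monocyte markers held *Hmox1* at 1776 CPM (1626 to 1937) and *Fth1* at 23108 CPM (22558 to 23669), against 918 (861 to 978) and 9218 (9034 to 9404) in the others. The split is also one of depth, with a median of 2285 UMIs in the cells with fewer monocyte markers and 9443 in the others, and the part of depth was not tested. Endothelial cells held 82.1% of the 28 *Slc40a1* UMIs of Naïve, and macrophages 55.9% of the 59 of ConA+Veh. In ConA+FICZ macrophages held 10 of 54 *Slc40a1* UMIs, and most of the others lay in cells outside the 5 classes, neutrophils and hepatocytes. The part of these cells in the lower macrophage level of ConA+FICZ was not tested.

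*Tfrc*, the route of iron into dividing cells, was followed in T or NK cells and in erythroid cells. In T or NK cells it stood at 21.5 CPM (15.8 to 28.6) in Naïve, 60.9 (56.1 to 66.1) in ConA+Veh, 52.0 (46.9 to 57.5) in ConA+TCDD and 40.4 (35.8 to 45.4) in ConA+FICZ. Naïve lay below all 3 ConA libraries, and ConA+FICZ below ConA+Veh and ConA+TCDD. ConA+Veh stood 2.83-fold above Naïve (1.07 to 1.96 on the log2 scale), and the log2 ratios of ConA+TCDD and ConA+FICZ over ConA+Veh were −0.23 (−0.42 to −0.04) and −0.59 (−0.80 to −0.39). Over all lymphocytes the levels were 17.6, 45.5, 43.6 and 30.6 CPM, and the ConA+Veh level was 2.59-fold higher than in Naïve (1.37, 1.04 to 1.72).

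In B cells *Tfrc* stood at 14.2, 11.7, 11.9 and 12.6 CPM. At equal depth 0.966%, 6.89%, 5.88% and 2.89% of T or NK cells had a *Tfrc* UMI, in the same order of libraries as the CPM. The ratio for lymphocytes was 0.70 when cells with few genes or a high mitochondrial share were left out, which ended the call.

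In erythroid cells *Tfrc* had 0 UMIs in 20 Naïve cells, 4 UMIs in 3 of 69 cells of ConA+Veh (32.3 CPM, 8.80 to 82.7), 26 UMIs in 13 of 93 cells of ConA+TCDD (123 CPM, 80.6 to 181) and 2 UMIs in 1 of 6 cells of ConA+FICZ (358 CPM, 43.3 to 1293). The ConA+TCDD level was 3.82-fold higher than that of ConA+Veh (1.93, 0.41 to 3.91), where 15.6% of erythroid genes were called. The call ended with at least 2 markers per cell (1.34). As CPM of the UMIs other than hemoglobin it was 48.7 in ConA+Veh and 175 in ConA+TCDD. Nearly all of these UMIs, 4 of 4 and 24 of 26, lay in cells with at least 3 erythroid genes other than hemoglobin, of which there were 19 and 41, and within them the levels were 69.3 CPM (18.9 to 177) and 180 CPM (115 to 268), with overlapping intervals. Some markers of red cell precursors moved with *Tfrc* between ConA+Veh and ConA+TCDD. *Hemgn* stood at 8.07 and 256 CPM, *Rhag* at 40.4 and 285, *Klf1* at 8.07 and 52.2 and *Slc4a1* at 396 and 978. The ConA+Veh values of *Hemgn* and *Klf1* are 1 UMI each. Others differed less, with *Gata1* at 40.4 and 47.5 CPM and *Epb42* at 88.8 and 123. The part of these markers in the *Tfrc* result was not tested.

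Other genes of the heme pathway in the same erythroid cells, between ConA+Veh and ConA+TCDD, moved in both directions. *Cpox*, the coproporphyrinogen oxidase, stood at 56.5 and 223 CPM (1.98, 0.83 to 3.37), and *Abcb10*, a mitochondrial transporter, at 56.5 and 147 (1.38, 0.17 to 2.81). *Fech*, which inserts iron into heme, stood at 1316 and 584 (−1.17, −1.52 to −0.83), and *Iscu*, a scaffold for iron-sulfur clusters, at 589 and 247 (−1.26, −1.80 to −0.72).

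*Slc11a1* was found almost wholly in phagocytes and neutrophils among the gated classes, with at most 3 UMIs in the lymphocytes and 1 in the endothelial cells of any library. In macrophages it stood at 157 CPM (93.2 to 249), 157 (137 to 180), 87.3 (47.7 to 146) and 192 (167 to 219), and no comparison with ConA+Veh or Naïve was called. Without the top cell of each library, ConA+TCDD passed as lower than ConA+Veh (−1.07, −2.15 to −0.16), on 10 UMIs. In monocytes it stood at 191 CPM (137 to 259) in Naïve, 58.2 (33.9 to 93.2) in ConA+Veh, 14.9 (3.08 to 43.7) in ConA+TCDD and 128 (84.2 to 186) in ConA+FICZ, from 41, 17, 3 and 27 UMIs. Naïve and ConA+FICZ had overlapping intervals, and ConA+TCDD the lowest value.

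The monocyte level of ConA+Veh was 3.27-fold lower than in Naïve (−1.71, −2.62 to −0.86), that of ConA+TCDD 3.90-fold lower than in ConA+Veh (−1.96, −4.38 to −0.17), and that of ConA+FICZ 2.19-fold higher (1.13, 0.21 to 2.10). The ConA+TCDD call held in 10 of the 14 alternatives that gave a value, and the ConA+FICZ call in 12 of 17. Assigned at equal depth, the 2 ratios were −1.23 and 0.12, and with equal weight for every cell −1.65 and −0.14, none of them called. *Lyz2* of the monocytes followed the same order of libraries, as given above, and so did *Ccr2* (693, 281, 164 and 317 CPM) and *Fn1* (1213, 144, 115 and 346). Other markers did not: *Plac8* stood at 1464, 3274, 2365 and 2016 CPM, *Chil3* at 1367, 1425, 563 and 2949, and *Ms4a4c* at 367, 493, 204 and 700. The part of marker differences in the *Slc11a1* result was not tested. Neutrophils held *Slc11a1* at 256, 84.1, 92.7 and 245 CPM, from 5, 7, 3 and 47 UMIs.

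ConA+FICZ and ConA+TCDD, the libraries of both receptor ligands, are set side by side for the members that stood apart. Monocyte *Hmox1* was 506 and 169 CPM (log2 ratio of ConA+FICZ over ConA+TCDD 1.58, 1.01 to 2.18), monocyte *Slc11a1* 128 and 14.9 CPM (3.10, 1.40 to 5.46) and macrophage *Blvrb* 337 and 150 CPM (1.17, 0.58 to 1.83). Macrophage *Hmox1* was 885 CPM in both (0.00, −0.26 to 0.26). The dose and the timing of FICZ are not given in the sources used here, so neither can be matched.

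The pathway around the members was read from 66 genes in 8 lists, members included, which gave 330 gene and class pairs. Between ConA+Veh and Naïve 161 pairs were measured, of which 30 were called higher and 20 lower, with a median log2 ratio of 0.00 against −0.10 for all genes and with 22.0% of all pairs called. Erythroid cells, where 84.5% of all genes were called higher, gave 10 of the 30 higher pairs and 3 of the 5 of iron storage. A gene can count once in every class, so a list count can repeat a single gene. The higher pairs of iron uptake and transport included *Lcn2* in macrophages, monocytes, endothelial cells and lymphocytes. The lower pairs of iron-responsive regulators included *Hfe* in macrophages, monocytes and endothelial cells. Between ConA+TCDD and ConA+Veh 157 were measured, with 6 higher and 16 lower (median −0.08 against −0.02, 5.45% of all pairs called), and between ConA+FICZ and ConA+Veh 167, with 17 higher and 6 lower (median 0.15 against 0.04, 5.55%). By list, ConA+Veh over Naïve gave 9 higher and 3 lower of 33 pairs for heme synthesis, 7 and 4 of 33 for heme uptake, export and breakdown, 6 and 3 of 17 for iron uptake and transport, 5 and 0 of 24 for iron storage, 0 and 5 of 14 for iron-responsive regulators, 0 and 3 of 19 for heme-responsive regulators, 0 and 1 of 4 for iron export, and 3 and 1 of 17 for iron-sulfur cluster assembly.

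In ConA+TCDD over ConA+Veh, heme synthesis gave 4 higher and 2 lower of 36 pairs, heme uptake, export and breakdown 0 and 6 of 30, iron uptake and transport 1 and 5 of 17, iron storage 0 and 1 of 24, iron export 0 and 1 of 3, heme-responsive regulators 1 and 0 of 19, iron-responsive regulators 0 and 0 of 11, and iron-sulfur cluster assembly 0 and 1 of 17. The lower pairs of iron uptake and transport were *Slc11a1* in monocytes and *Lcn2* in macrophages, monocytes, endothelial cells and lymphocytes. That of iron export was *Hamp*, a product of hepatocytes, in lymphocytes. The 6 lower pairs of heme uptake, export and breakdown include *Hmox1* in monocytes and *Blvrb* and *Hmox2* in macrophages. The others were *Hp* in monocytes, and *Hp* and *Hpx* in lymphocytes. Both are products of hepatocytes, and the summed hepatocyte markers in lymphocytes stood at 27.4 CPM in ConA+Veh and 1.94 CPM in ConA+TCDD; their part in these pairs was not tested. In ConA+FICZ over ConA+Veh the same lists gave 1 and 1 of 37, 7 and 0 of 35, 4 and 1 of 18, 0 and 0 of 24, 2 and 2 of 5, 2 and 1 of 19, 0 and 1 of 12, and 1 and 0 of 17. Among the higher pairs were *Hp*, *Hpx*, *Hamp* and *Trf* in lymphocytes, all products of hepatocytes, whose RNA was more widespread in that library as given below.

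*Lcn2*, lipocalin 2, a protein that binds bacterial iron carriers, had the largest ratio of ConA+Veh over Naïve among the pathway genes named in macrophages and monocytes. In macrophages it stood at 8.74 (1 UMI), 229, 49.9 and 85.4 CPM, in monocytes at 9.30, 339, 19.9 and 350, and in endothelial cells at 169, 1349, 372 and 3257. ConA+Veh lay above Naïve by log2 ratios of 4.71 (2.23 to 10.02), 5.19 (3.30 to 8.25) and 2.99 (2.39 to 3.67). ConA+TCDD lay below ConA+Veh in all 3 classes, by −2.20, −4.09 and −1.86, while ConA+FICZ lay below it in macrophages (−1.42) and above it in endothelial cells (1.27). *Lcn2* is also a gene of hepatocytes and neutrophils, and in lymphocytes it stood at 1.04, 10.7, 1.19 and 26.2 CPM.

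Among the regulators of iron export, *Bmp6*, the endothelial signal that drives hepcidin in hepatocytes, stood at 228, 10.8, 31.0 and 32.8 CPM in endothelial cells, and was lower in ConA+Veh than in Naïve (−4.41, −6.76 to −2.73), on 3 and 31 UMIs. *Hfe*, an MHC-like protein of the hepcidin pathway, was lower in ConA+Veh in all 3 classes, from 61.2 to 13.5 CPM in macrophages (−2.18, on 7 Naïve UMIs), from 74.4 to 20.6 in monocytes (−1.86) and from 125 to 25.1 in endothelial cells (−2.32). *Aco1*, which encodes an iron regulatory protein, went from 52.4 to 11.2 CPM in macrophages (−2.22, on 6 Naïve UMIs). *Ncoa4*, the receptor that delivers ferritin to lysosomes, was higher in endothelial cells, from 22.1 to 78.9 CPM (1.84, 0.10 to 4.22), on 3 UMIs in Naïve.

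A further 4 genes were lower in monocytes of ConA+Veh than of Naïve. *Lrp1*, a receptor for heme bound to hemopexin, went from 395 to 65.1 CPM (−2.60, −3.40 to −1.87), *Hp*, haptoglobin, from 669 to 295 (−1.18), *Trf*, transferrin, from 107 to 10.3 (−3.38), and *Bach1*, the heme-binding repressor of *Hmox1*, from 232 to 61.7 (−1.91, −2.78 to −1.11). In macrophages *Lrp1* went from 376 to 166 CPM (−1.18) and *Keap1*, the partner of the NRF2 factor, from 131 to 52.5 (−1.32). *Hmox2*, the constitutive heme oxygenase, was higher in monocytes, from 69.7 to 161 CPM (1.21). Of the genes of heme synthesis 2 of 3 measured in monocytes and 1 of 7 in macrophages were called, all higher. Of all genes in these classes 28.0% and 6.19% were called in either direction. Among those of heme synthesis were *Tmem14c* from 163 to 360 CPM (1.14) in monocytes and *Alas1* from 17.5 to 66.7 (1.93) in macrophages on 2 Naïve UMIs.

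Between ConA+TCDD and ConA+Veh, *Hmox2* went from 193 to 93.5 CPM in macrophages (−1.04), *Slc25a37*, a mitochondrial iron importer, from 13.5 to 43.6 (1.69), and *Hp* in monocytes from 295 to 74.7 (−1.98). Between ConA+FICZ and ConA+Veh, *Spic*, the factor of iron-recycling macrophages, went from 30.0 to 4.36 CPM in macrophages (−2.78, −4.48 to −1.44), *Blvra*, the other biliverdin reductase, from 54.8 to 118 in monocytes (1.11) and from 32.3 to 85.4 in endothelial cells (1.40), and *Lrp1* from 65.1 to 251 in monocytes (1.95). In endothelial cells *Mafg*, a small MAF partner of NRF2 and BACH1, went from 43.0 to 164 CPM (1.93), *Keap1* from 61.0 to 125 (1.03) and *Cp*, ceruloplasmin, from 122 to 46.0 (−1.41).

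*Hamp*, hepcidin, and *Hpx*, hemopexin, both products of hepatocytes, were called higher in ConA+FICZ macrophages, at 20.9 against 2.25 CPM (3.22) and 28.8 against 5.25 CPM (2.45). Hepatocyte markers were detected in 51.2% of all ConA+FICZ cells, against 17.3% of Naïve, 18.2% of ConA+Veh and 2.13% of ConA+TCDD cells, and their summed level in macrophages was 147 CPM against 69.9, 32.2 and 0. The part of hepatocyte RNA in these 2 values was not tested.

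The genes most like each member were found by Pearson's r of log2(CPM + 10) over the 20 points of a class and library, out of 10471 genes with at least 100 UMIs, as a description, since points share libraries and depth. For *Hmox1* they were *Tcf7l2* (0.97), *Sdc3* (0.96) and *Plin2* (0.95), for *Slc11a1* *Itgb5*, *Clec4a1* and *Lrp1* (each 0.99), and for *Cd163* *Ccl8* (0.89), *Gm47242* (0.87) and *Pf4* (0.84). For *Slc40a1* they were *Zfp617* (0.85), *Ccl21a* (0.85) and *Clec4g* (0.84), for *Blvrb* *Mpp1* (0.92), *Sec61g* (0.90) and *Arf5* (0.90), and for *Tfrc* *Mpst* (0.85), *Prdx3* (0.84) and *Bola3* (0.84). *Ftl1* was most like *Ctsb* (0.93), *Tcf7l2* (0.87) and *Fth1* (0.85), and *Fth1* like *Rab32*, *Taldo1* and *Atp6v0c* (each 0.88).

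Since both TCDD and FICZ act through a DNA-binding receptor, the promoters were searched on both strands for GCGTG, the core letters bound by the aryl hydrocarbon receptor, in the RefSeq windows of 250 bases before to 50 after the start (GRCm38.p6). Of the 6 members matched in that table, 5 held it (*Blvrb*, *Fth1*, *Ftl1*, *Slc11a1* and *Tfrc*, not *Cd163*), in 6 of 9 promoters, and 32.4% of all 32851 promoters held it. TGACNNNGC, the letters bound by NRF2 with a small MAF protein, was in 0 of the 9 and in 12.4% of all promoters. *Hmox1* and *Slc40a1* had no entry in the table.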

How the data were processed

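The authors prepared 10x Genomics 5′ libraries, aligned reads to mm10 and counted UMIs with Cell Ranger 3.0.2 (per the labels and file headers). The deposited values are raw UMI counts per gene and cell, with no normalization. No cell was filtered here, and the smallest cells held 500 UMIs. With 1 library for every condition, the libraries were compared without a test. UMIs were summed over a class, with exact 95% Poisson intervals for levels, intervals from the exact binomial distribution for log2 ratios, and Clopper-Pearson intervals for shares of cells thinned to 1000 UMIs. A sum of 0 was read as up to 3 UMIs. Doublets were handled only by leaving out cells that reached more than 1 class (68, 269, 122 and 388 cells). Named genes are the 8 members, every pathway gene called in macrophages, monocytes or endothelial cells, and the 3 genes most like each member; those named in erythroid cells were chosen after their values were seen, and 1 called pathway gene is not reported here by name. Members and lists were chosen with earlier results of these data known. Scripts were tested on simulated data. The tools were scipy 1.17.1, numpy 2.4.6, pandas 2.3.3 and matplotlib 3.10.9 under Python 3.11.15. Levels compare a gene between libraries. In this 5′ assay a molecule gives 1 UMI whatever its length.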

Additional observations from a re-analysis of the deposited data

How the results depend on the processing

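Of 281 values of the 17 called member and class pairs under 17 alternatives, of which 4 were added after the data had been seen, 246 lay within the counting interval of the reported value, 30 outside it in the same direction, and 5 changed sign. With equal weight for every cell (the mean of UMIs per 10000), the log2 ratio was 0.26 for *Fth1* in endothelial cells under ConA+TCDD, −0.19 for *Cd163* in macrophages and −0.14 for *Slc11a1* in monocytes under ConA+FICZ. *Fth1* in erythroid cells, ConA+Veh over Naïve, was −0.54 with totals free of ribosomal, mitochondrial, immunoglobulin and hemoglobin genes and −0.85 with totals free of hemoglobin alone. The 5 called pairs of ConA+TCDD became 3 with at least 2 markers per cell, 3 when cells were assigned after thinning and 9 at 1.5-fold. The 3 of ConA+FICZ became 5 with at least 4 markers, 6 when assigned after thinning, 6 when cells of several classes went to the best class and 6 at 1.5-fold. The share of all genes called under each of these alternatives is not given here, so these counts are not a result about the members. The cause of the changes was not tested. The share of ConA+Veh monocytes with *Hmox1* was 34.9% at 1000 UMIs, 55.3% with no thinning and 25.5% at 500 UMIs. No paired analysis was possible because each condition had 1 library. The 12 Naïve macrophages, 8 ConA+TCDD endothelial cells and 6 ConA+FICZ erythroid cells limit the precision of the values that rest on them.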
